A study of Mus musculus with 8 samples.

Results

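Adrenomedullin signalling was examined in whole hearts of mice with a permanent coronary ligation, through the 6 genes Ramp1, Ramp2, Ramp3, Calcrl, Adm and Calca. The rule took every row of the deposited table whose only gene symbol was one of these names. It found 6 probes for 5 of the genes, among 33600 probes and 13661 named genes in all. Ramp1, Ramp2, Ramp3 and Adm had 1 probe each, Calcrl had 2, and for Calca no probe was found, so that gene was not analysed here. The genes were chosen by the difference between infarcted and sham hearts seen earlier in these same data, in particular that of Ramp2. Their differences are therefore given below as a description and carry no test.

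The infarcted group held 4 hearts in which a descending coronary branch on the left side was tied off for good. The sham control group held 4 hearts in which the thread was passed under the artery and not tied. All 8 mice were of strain C57Bl/6 and 8 to 10 weeks old, and no allele or agent other than the anaesthetics is named for either group. Each heart was hybridised whole to an array of its own, so injured and uninjured tissue were measured together, and the sources used here do not give the time after surgery. As bulk tissue, these samples cannot tell fewer cells of a type from less RNA per cell. Each level is a log2 signal of one scanner channel, taken to be that of the heart, over the median of the spot's 700-spot block, so 0 is a typical spot.

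Adrenomedullin, encoded by Adm, is a peptide that widens blood vessels, tightens the endothelial barrier and is needed for lymphatic vessels to form. It acts through the calcitonin receptor-like receptor, encoded by Calcrl, which needs a receptor activity-modifying protein (RAMP) to reach the cell surface. The RAMP sets the ligand preference: with RAMP1 the receptor prefers calcitonin gene-related peptide (CGRP), a product of Calca, and with RAMP2 or RAMP3 it prefers adrenomedullin. In the heart RAMP2 is known chiefly from the endothelium, and Adm is known to be induced by low oxygen.

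Of the 6 genes, Adm and Calcrl are shown with the bases around their transcription start, because the question of low oxygen is taken up below and the hypoxia-inducible factors bind the core GCGTG or ACGTG. Each run goes from 250 bases before the start to 50 after it on the gene's strand, from RefSeq on build GRCm38.p6, where entries were found for 5 of the 6 genes (Ramp2 had none). Capitals mark GCGTG or its complement CACGC.
Adm, chr7:110627407-110627706, plus strand: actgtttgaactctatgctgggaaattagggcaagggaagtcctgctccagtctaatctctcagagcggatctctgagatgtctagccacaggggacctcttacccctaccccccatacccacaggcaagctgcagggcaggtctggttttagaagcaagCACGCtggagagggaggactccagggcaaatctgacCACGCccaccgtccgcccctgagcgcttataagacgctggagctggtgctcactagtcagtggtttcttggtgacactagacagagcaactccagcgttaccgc
Calcrl, chr2:84425217-84425516, minus strand: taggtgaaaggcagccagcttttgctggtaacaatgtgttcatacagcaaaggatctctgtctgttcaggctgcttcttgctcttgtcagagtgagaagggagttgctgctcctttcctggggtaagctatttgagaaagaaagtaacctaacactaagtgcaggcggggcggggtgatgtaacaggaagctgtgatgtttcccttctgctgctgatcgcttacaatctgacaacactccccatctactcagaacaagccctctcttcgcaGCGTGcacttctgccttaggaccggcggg
GCGTG on either strand occurred 2 times for Adm, 2 times for Ramp3, 1 time for Calcrl and 0 times for Ramp1 and Calca. ACGTG occurred in 0 of these 5 promoters. Among 32851 promoters of the same length, 32.4% held GCGTG, 19.6% held ACGTG and 43.8% held at least one of them, so a match is common.

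Ramp2, the adrenomedullin-selecting partner of the receptor, was the member with the wide difference. Its level was 0.27, -0.15, -0.06 and -0.04 on infarcted replicates 1, 2, 3 and 4, against 3.70, 2.62 and 2.85 on sham control replicates 1, 2 and 4. Sham control replicate 3 had no value for this spot. The 7 values formed groups 2.35 log2 units apart, with the infarcted hearts at the level of a typical spot and the sham hearts well above it.

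In scanner units the Ramp2 spot gave 677, 506, 614 and 405 on the infarcted arrays, against 8664, 2440 and 3555 on the sham control arrays. The median spot of its block gave 417.5 to 639 on the infarcted arrays and 368.5 to 666 on the sham control arrays, so the scale of the block was alike in both groups. Within an array the Ramp2 spot stood on average at the median of all spots in infarcted hearts and above 88.7% of them in sham hearts. The means were 0.004 ± 0.18 (SD, n = 4) in infarcted hearts and 3.06 ± 0.57 (SD, n = 3) in sham hearts. The difference was -3.05 ± 0.31 on the log2 scale (SE of the limma fit, 3 sham values), which is 8.30-fold lower in infarcted hearts. Of 20561 tested probes, 13 had a more negative difference, a rank that follows from choosing the gene by this contrast. With 1 array left out the Ramp2 difference ran from -3.27 to -2.73.

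**Figure D1:**
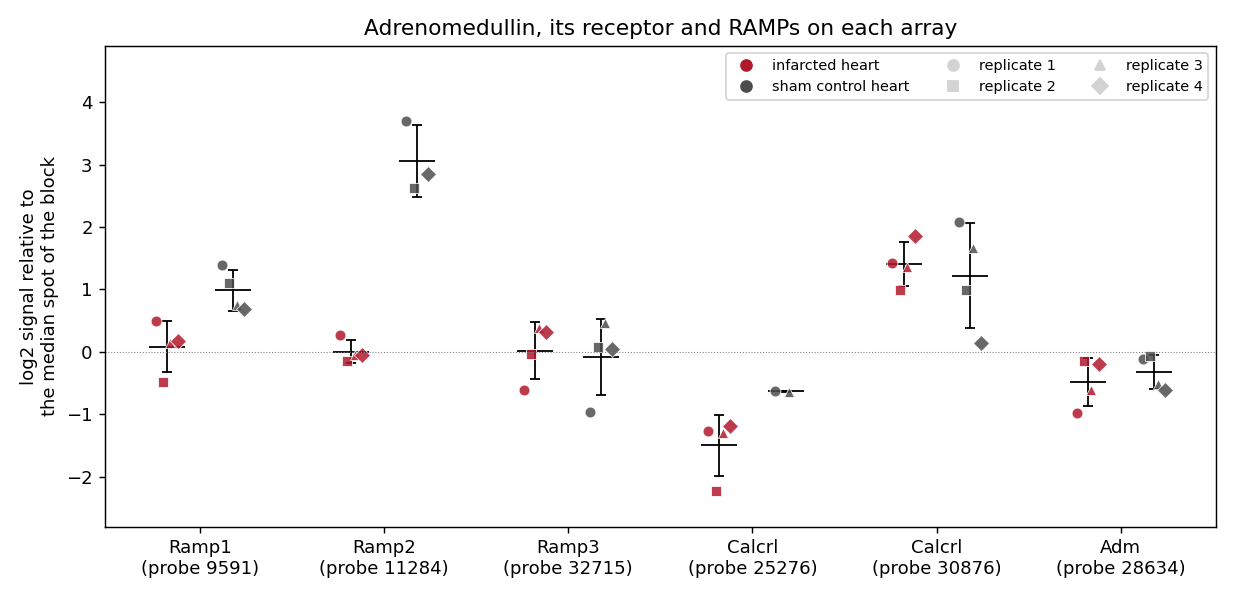
Each point is 1 array, with infarcted hearts (red) left of sham control hearts (grey) for each of the 6 probes, on a vertical axis of log2 signal relative to the block median; horizontal bars are group means and vertical bars 1 SD. Ramp2 lies between -0.15 and 0.27 in infarcted hearts and between 2.62 and 3.70 in sham hearts, while Ramp3, Adm and the brighter Calcrl probe overlap.

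Ramp1, the partner that turns the receptor towards CGRP, had a smaller difference of the same sign. Its level was 0.50, -0.48, 0.14 and 0.17 on infarcted replicates 1 to 4, against 1.39, 1.11, 0.75 and 0.69 on sham control replicates 1 to 4. The groups did not overlap, but the gap between them was only 0.20. The means were 0.08 ± 0.41 in infarcted hearts and 0.99 ± 0.33 in sham hearts (SD, n = 4 each), a difference of -0.90 ± 0.27 (SE).

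Ramp3, the other adrenomedullin-selecting partner, overlapped between the groups. Its level was -0.61, -0.03, 0.38 and 0.32 on infarcted replicates 1 to 4, against -0.96, 0.08, 0.46 and 0.05 on sham control replicates 1 to 4. The lowest value of each group was that of replicate 1, and the other 6 lay between -0.03 and 0.46. The difference was 0.11 ± 0.35 (SE), its sign turning without infarcted replicate 3 (-0.02) or without sham control replicate 1 (-0.18).

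Calcrl, the receptor itself, was read by 2 probes that did not give the same picture. The brighter one stood at 1.42, 0.99, 1.36 and 1.86 on infarcted replicates 1 to 4, against 2.08, 1.00, 1.67 and 0.14 on sham control replicates 1 to 4. The infarcted values lay inside the range of the sham values, whose SD of 0.85 compares with 0.35 in infarcted hearts. The difference was 0.19 ± 0.40 (SE), and it was -0.17 without sham control replicate 4, the array with the lowest value.

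The dimmer Calcrl probe stood at -1.27, -2.23, -1.31 and -1.19 on infarcted replicates 1 to 4, against -0.63 and -0.64 on sham control replicates 1 and 3. It had no value on sham control replicates 2 and 4, the pair of arrays with the fewest values in all. With 2 sham values it did not enter the main fit, and with at least 2 values per group allowed the difference was -0.86 ± 0.37 (SE). All infarcted values were lower than both sham values, by at least 0.54. In scanner units the spot gave 111 to 260 in infarcted hearts, against 472 and 329 in sham hearts.

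Adm, the ligand, overlapped between the groups as well. Its level was -0.98, -0.14, -0.61 and -0.20 on infarcted replicates 1 to 4, against -0.12, -0.07, -0.52 and -0.61 on sham control replicates 1 to 4. All 8 values were below the median spot of their block. The difference was -0.16 ± 0.26 (SE), and 0.0092 without infarcted replicate 1, the array with the lowest value.

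Across all probes, 157 of 20561 passed an adjusted p under 0.05 (limma, Benjamini-Hochberg over all of them), which is 0.764%. Lower ones numbered 144, or 0.700%, and higher ones 13. Of the 6 member probes 5 were tested and 1 passed, Ramp2, in the lower direction. The groups did not overlap for 2 of the 5, Ramp1 and Ramp2, where this held for 9.11% of all tested probes. Since this contrast chose the members, nothing is read from these counts. The median difference over all probes was -0.07. Brighter probes had lower medians, -0.61 for the 786 probes with a mean level from 4 to 5 and -0.89 for the 433 above 5. The 99th percentile of the levels was 5.05 to 5.24 on infarcted arrays and 5.65 to 6.31 on sham control arrays. Centring on the medians does not remove this difference in spread. Among the 3195 probes within 0.5 of the mean level of Ramp2 the median was -0.03, and 0.157% of them had a difference as low as its own. Ramp2 was chosen by this difference, so a low share follows from the choice and nothing is read from it.

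**Figure D2:**
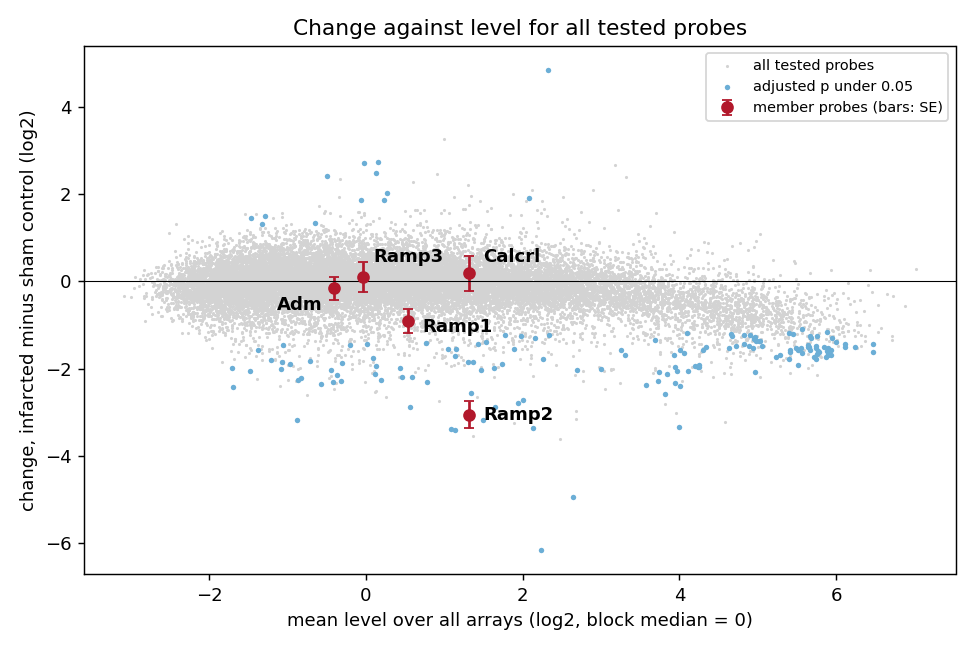
Each grey point is one of 20561 tested probes, with its mean level over the arrays on the horizontal axis and its log2 difference, infarcted minus sham control, on the vertical axis; blue points passed an adjusted p under 0.05 and red points with SE bars are the 5 tested member probes. Ramp2 at -3.05 lies below the bulk of the points, Ramp1 at -0.90 near its lower edge, and Ramp3, Calcrl and Adm inside it.

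The Ramp2 spot was also set beside the spots listed around it in the table. Of the 4 spots before and 4 after it, 5 were tested. Their differences ran from -1.20 to -0.23, all negative and none past the threshold, and the median over the 420 tested spots of the block was -0.17. After subtraction of the median of the 10 spots on either side, an alternative chosen after seeing the data, the Ramp2 difference was -2.33 ± 0.43 (SE). On sham control replicate 3, where Ramp2 had no value, 5 of the 8 surrounding spots had one.

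**Figure D3:**
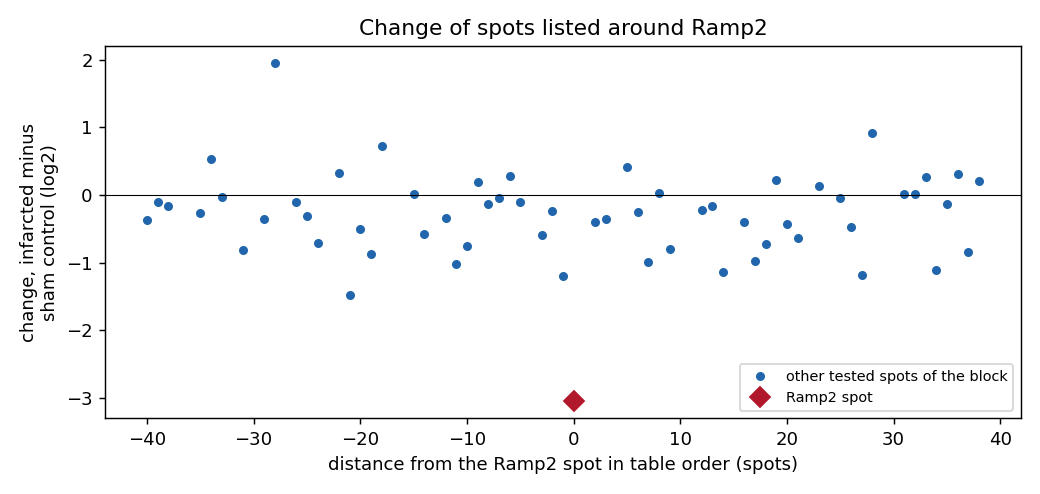
Points are the tested spots of the block within 40 places of Ramp2 in the order of the table, with the distance in spots on the horizontal axis and the log2 difference, infarcted minus sham control, on the vertical axis. Ramp2 (red) stands at -3.05, and the spots within 4 places lie between -1.20 and -0.23.

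Markers of the endothelium, the cell type in which Ramp2 is best known, did not pass as single genes. Of 23 listed genes 18 were tested on 26 probes, and 0 passed in either direction (limma), with 4 probes at an unadjusted p under 0.05 against 2571 of 20561 overall. Their median difference was -0.06, with 14 probes negative and 12 positive, beside -0.07 for all probes. The mean level of the 24 probes with values on all arrays was 1.14 to 1.54 in infarcted hearts and 1.21 to 1.59 in sham hearts. The ranges of the groups overlap for most of their width, and each of the 19 listed genes on the array had a value on at least 1 array.

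The endothelial probes with the smallest p pointed both ways. Flt1, a receptor for vascular endothelial growth factor, stood at 1.58 ± 0.42 in infarcted and 2.42 ± 0.27 in sham hearts (SD, n = 4 each), a difference of -0.84 ± 0.27 (SE, limma adjusted p = 0.216). Another Flt1 probe gave 0.59 ± 0.33. Eng, or endoglin, a co-receptor for the TGF-beta family, gave -0.73 ± 0.25 and -0.64 ± 0.26 with its 2 probes (adjusted p = 0.239 and 0.345). Pecam1, an adhesion molecule of endothelial junctions, gave 0.98 ± 0.40 with one probe (adjusted p = 0.352), 0.58 without sham control replicate 4, and 0.70 and 0.20 with the others. Cdh5, the cadherin of endothelial junctions, stood at -0.25 ± 0.34.

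Of the other cell types, markers of lymphatic endothelium had a median difference of 0.05 over 9 probes of 5 tested genes. Smooth muscle and pericyte markers had -0.29 over 14 probes of 10 genes, and fibroblast markers -0.04 over 10 genes. The fibroblast differences were spread widely, from -1.27 to 1.76, with 6 negative and 4 positive. Macrophage markers had a median difference of 0.49 over 9 genes. Their mean level was 1.51 to 2.18 in infarcted hearts and 0.92 to 1.48 in sham hearts. Heart muscle markers, the check on the labelled tissue, had values for all 14 listed genes, but only 6 of the genes could be tested. The median difference of their 12 tested probes was 0.14. Most of the 8 complete probes were Ttn probes, with differences from -0.91 to 1.27. The 8 complete probes averaged 4.37 to 4.63 in infarcted hearts and 3.88 to 4.94 in sham hearts. This average leaves out bright markers that lacked values mainly on sham arrays, where Atp2a2, Myl3, Mb and one Actc1 probe had no value and Tnni3, Tnnc1, Myl2 and the other Actc1 probe had 1.

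Lung epithelium markers had a median difference of -0.20 over 9 probes, with a mean level over the complete probes of 0.39 to 0.92 in infarcted hearts and -0.11 to 1.54 in sham hearts. Scgb1a1, a secretory protein of airway club cells, stood at 3.15, 2.99, 2.91 and 3.78 on infarcted replicates 1 to 4, against 4.96, 3.05, 5.31 and 4.66 on sham control replicates 1 to 4. Its difference was -1.29 ± 0.46 (SE, limma adjusted p = 0.271). Sftpc, a surfactant protein, differed by -1.19 ± 0.44 (adjusted p = 0.285). For Scgb1a1 and Sftpc, sham control replicate 2 lay among or below the infarcted values. These were the lowest of the 9 lung differences, of which 6 were negative and 3 positive. Aqp5 stood at 0.39 ± 0.35 and Ager at 0.26 ± 0.36 (SE). The Cldn18 probes gave -0.05, 0.03 and -0.20.

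In the 6 lists other than endothelium 0 genes passed (limma). Of their 63 tested probes 15 were at an unadjusted p under 0.05, or 23.8%, beside 12.5% of all tested probes. Macrophages gave 4 of 9 and heart muscle 4 of 12, and each other list gave 1 or 2. The part of cell composition and of lung tissue in the Ramp2 difference was not tested.

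Other genes of the peptide family and its handling were taken from a list of 16, of which 12 were on the array and 8 could be tested. None passed in either direction (limma), and 2 of the 9 probes were at an unadjusted p under 0.05. The median difference was -0.24. Cpe, a carboxypeptidase that trims peptide hormones, stood at 3.34, 2.80, 2.92 and 2.95 on infarcted replicates 1 to 4, against 4.22, 4.12, 4.10 and 3.65 on sham control replicates 1 to 4. These groups did not overlap, and the difference was -1.02 ± 0.23 (SE, limma adjusted p = 0.0821). Without sham control replicate 4, the lowest of the sham values, it was -1.14 and passed (limma adjusted p = 0.029). In that setting 741 of 20561 probes passed, against 157 in the main fit. With any other single array left out Cpe did not pass (limma adjusted p = 0.123 to 0.259). The Cpe difference was -0.60 after cyclic loess (adjusted p = 0.24) and -0.64 after quantile normalization (adjusted p = 0.385).

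Pam, the enzyme that amidates the C-terminus of adrenomedullin and CGRP, had 0.67 ± 0.45 in infarcted hearts and -0.81 ± 1.04 in sham hearts with its brighter probe (SD, n = 4 each). The difference was 1.48 ± 0.48 (SE, limma adjusted p = 0.219), and a dimmer Pam probe gave 0.67 ± 0.38. Calcb, the gene of the second CGRP, stood at -0.82 ± 0.57 and Crcp, a small protein tied to CGRP receptor coupling, at 0.47 ± 0.38. Gpr182, once proposed as an adrenomedullin receptor, stood at -0.24 ± 0.22. Mme, or neprilysin, a peptidase that degrades adrenomedullin, stood at 0.14 ± 0.29. Calcr and Iapp, the calcitonin receptor and amylin, had no value on any array.

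Downstream of the receptor, 37 genes of cyclic AMP and nitric oxide signalling were listed, 28 were on the array and 27 were tested on 34 probes. None passed in either direction (limma), 4 probes were at an unadjusted p under 0.05, and the median difference was -0.05. Crem, a transcription factor that answers to cyclic AMP, gave -2.31 ± 0.55 with one probe (SE, adjusted p = 0.0997). That probe stood at -1.06, -1.57, -1.44 and -0.57 on the infarcted arrays, against 1.32, -0.58, 2.45 and 1.39 on the sham control arrays. Sham control replicate 2 lay among the infarcted values, so leaving it out had to widen the difference. It was then -2.88 (limma adjusted p = 0.0221). With any other single array left out the probe did not pass (limma adjusted p = 0.0893 to 0.292). The other 3 tested Crem probes gave 0.48, 0.34 and -0.15. Pde3b, a phosphodiesterase that breaks down cyclic AMP, stood at 0.97 ± 0.33 (adjusted p = 0.249), and at 0.63 without sham control replicate 2.

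Receptors other than Calcrl that are reported to associate with RAMPs mostly had no value, which does not show absence. Bright spots lacked values too. Probes that exceeded 20000 scanner units somewhere lacked 38 values in infarcted hearts and 190 in sham hearts. Of 12 listed genes 10 were on the array, 6 had no value on any array and 3 were tested, with 0 passing and 0 at an unadjusted p under 0.05. Pth1r, the parathyroid hormone receptor, stood at -0.35 ± 0.25 in infarcted and 0.05 ± 0.17 in sham hearts (SD, n = 4 each), a difference of -0.40 ± 0.22 (SE, limma adjusted p = 0.502). Gper1, a membrane oestrogen receptor, stood at -0.65 ± 0.34 from 3 values in each group (adjusted p = 0.487). Of 14 receptors for other vasoactive ligands 7 were tested, 0 passed and 0 were at an unadjusted p under 0.05. Agtr1a, the angiotensin receptor, stood at -0.38 ± 0.25 and Ptger4, a prostaglandin receptor, at -0.31 ± 0.33 (adjusted p = 0.588 and 0.762). Ptger4 stood at 0.03 without sham control replicate 2, and Agtr1a at -1.07 and Pth1r at -0.82 after local spot centring.

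A list of genes of the low-oxygen response, Hif1a and Epas1 among them, was set beside Adm, which belongs to that response. Of 18 listed genes 16 were tested on 24 probes, 0 passed (limma), and 1 probe was at an unadjusted p under 0.05. The median difference was 0.19, with 15 probes positive and 9 negative, beside -0.16 ± 0.26 (SE) for Adm. Hmox1, the haem-degrading oxygenase, stood at 0.88 ± 0.34 in infarcted and 0.06 ± 0.45 in sham hearts (SD, n = 4 each), a difference of 0.82 ± 0.29 (SE, adjusted p = 0.263). Mif, a cytokine, stood at -0.43 ± 0.21 (adjusted p = 0.456), and at 0.0065 after quantile normalization. The 4 probes of Vegfa, the endothelial growth factor, gave 0.31, 0.29, -0.22 and 0.48.

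**Figure D4:**
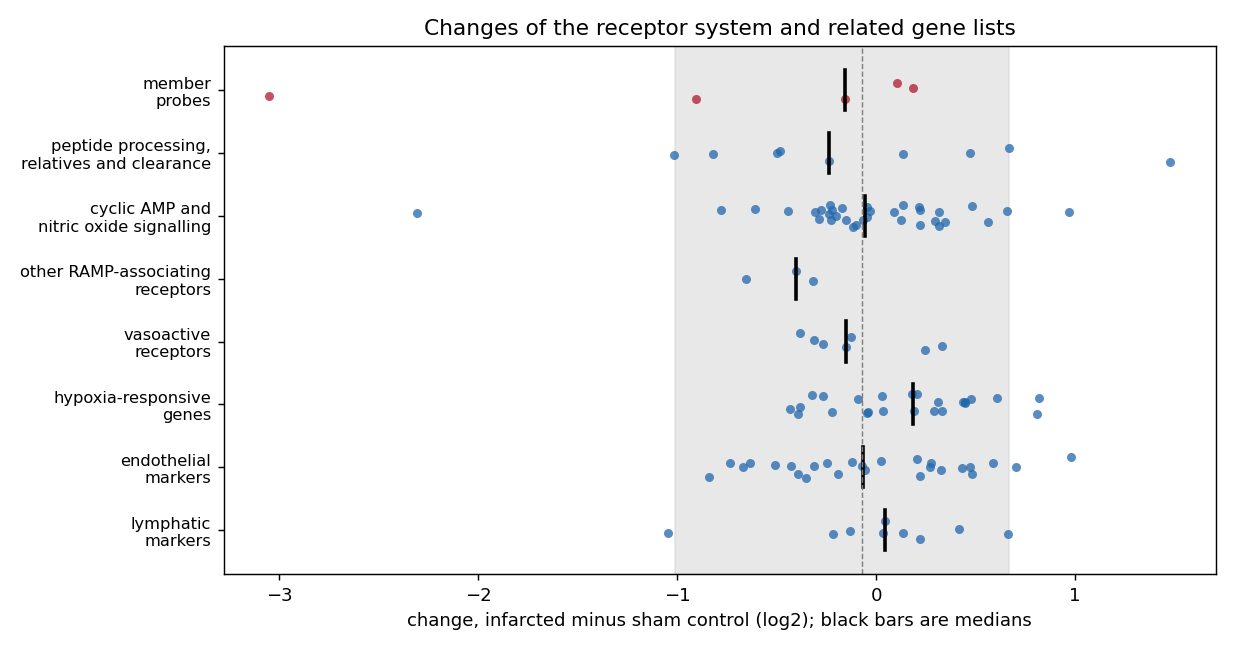
Each point is a tested probe, placed by its log2 difference, infarcted minus sham control, with the member probes in red, the related lists in blue and a black bar at each median. The grey band spans the 5th to 95th percentile of all tested probes (-1.01 to 0.67), and the dashed line is their median of -0.07; Ramp2 at -3.05 and the Crem probe at -2.31 lie far outside the band.

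The probes whose levels ran most nearly parallel to each member over the arrays were looked up among those with a gene name. For Ramp2, over 7 arrays and 10825 probes, they were Olfr1263 (Pearson r = 0.992), Taf5l (0.990) and Olfr749 (0.988). Olfr1263 and Olfr749 are odorant receptor genes, with differences of -1.84 and -1.78, and Taf5l, a subunit of a transcription coactivator, differed by -0.22. For Ramp1, over 8 arrays, Ndufa7, a subunit of respiratory complex I, came first (0.974), with a difference of -0.89. For Ramp3 it was Slc25a30 (0.988), a mitochondrial carrier listed in the same block 43 spots away, for the brighter Calcrl probe Cd200 (0.986), and for Adm Psmc1 (0.912), a proteasome subunit. These correlations pool both groups on shared arrays and carry no test.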

How the data were processed

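Total RNA of each heart was labelled red and hybridised beside a green pooled mouse reference on spotted oligonucleotide arrays, with 30 µg per dye and no dye swap, per the labels' protocols. The deposited log2 values cover 33600 spots on 8 arrays, and 19704 to 24819 spots per array have a value. For each of 384 combinations of block and array, 1 constant turned the deposited log2 values into whole numbers (tolerance 0.001), from 42 to 65466. The values are therefore read as the signal of 1 scanner channel over its block median, not as a ratio of dyes. The sources used here do not say which channel that is, and the heart channel is assumed. They give no background correction or flags either.

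Probes were named through the platform annotation, where 18179 had 1 symbol. Arrays were centred on their medians. Probes with at least 3 values in each group were fitted with the moderated linear models of limma 3.58.1 (lmFit, eBayes; R 4.3.3), with Benjamini-Hochberg adjustment over all 20561. The fit was tested on simulated data. The labels describe separate hearts, and p-values cover the spread of hearts and arrays together. Array pairs within a group correlated at 0.864 to 0.955 over 17178 complete probes, and pairs between the groups at 0.864 to 0.942. Sham control replicate 4 correlated at 0.864 to 0.890 with the other arrays.

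Members and gene lists were chosen with earlier results of these data known. Named genes were, per related list, those past the threshold or else the 2 probes with the smallest p, and the 4 such endothelial probes. The 3 probes most like each member, of which the first is given for all but Ramp2, were found by Pearson r. Genes named beyond this (further probes of the same genes, Cdh5, Calcb, Crcp, Gpr182, Mme, Calcr, Iapp, Vegfa and the heart muscle and lung markers) were added after their values were seen. Alternatives were other normalizations, value filters, array weights, prior, probe averaging, the replicate block and each array left out.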

Additional observations from a re-analysis of the deposited data

Results flagged for a closer look

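Among 34 groups of 4 values checked for the members and named genes, 2 held an array far from the other 3, where chance gives about 1 in 20. The dimmer Calcrl probe stood at -2.23 on infarcted replicate 2, against -1.31 to -1.19 on the other infarcted arrays. Mif stood at 4.38 on sham control replicate 1, against 3.82 to 3.91 on the other sham arrays.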

How the results depend on the processing

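The Ramp2 difference was negative in all 19 alternatives that gave it a value. Several could not move it and returned -3.05 again, such as no centring, probe averaging and sham control replicate 3 left out. With the groups 2.35 apart, leaving out 1 array could not turn the sign. In 4 of the 19 alternatives the probe did not pass an adjusted p under 0.05 (limma). Those were infarcted replicate 3 left out, infarcted replicate 4 left out, the replicate block and local spot centring. Because this contrast chose the gene, its values are a description without a test. It was -2.33 after local spot centring and ran from -3.27 to -2.73 with 1 array left out. With a value required on all 8 arrays it dropped out. Deviations of same-numbered arrays correlated at 0.035, 0.313, -0.092 and -0.199, and those of differently numbered arrays at -0.199 to 0.332. Such values cannot settle whether equal replicate numbers pair the hearts. With the replicate block, Ramp2 stood at -3.03, infarcted replicate 3 losing its partner. In that setting 1 probe passed in all, a higher one and not Ramp2. The 157 calls became 596 with array weights, 99 with cyclic loess or averaged probes, 91 with scale normalization, 35 with quantile normalization, 33 with local spot centring and 3 to 741 with 1 array left out (without infarcted replicate 3 and without sham control replicate 4). Related lists gained 2 genes with array weights and 0 to 1 with 1 array left out. Ramp1 kept its sign throughout, from -1.33 to -0.72. Adm ran from -0.27 to 0.0092 with 1 array left out and stood at 0.009 after local centring. Ramp3 ran from -0.18 to 0.32. The brighter Calcrl probe ran from -0.17 to 0.47 and stood at -0.091 with array weights. The average of both Calcrl probes gave -0.64, where 2 sham arrays hold the brighter probe alone. Ptger4 ran from -0.52 to 0.03, and Mif turned to 0.0432 with loess and 0.0065 with quantile normalization. Eng was -0.41 with loess, Gper1 was -0.99 with the block, Pecam1 0.60 with array weights, and averaging a gene's probes gave Crem -0.41, Pam 0.88 and Pecam1 0.63. Spots without a value and 4 arrays a group limit precision.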
